A study of Mus musculus with 4 samples.

Results

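Chemoattractant receptors place lymphocytes within lymph nodes, and their transcripts are described here in lymph node B cell preparations of mice that over-express the microRNA miR-146a. The receptors were chosen by name, with earlier results of these data known: Ccr7, Cxcr5, Cxcr6, Cxcr3, Ccr2, Ccr6, Ccr9, Gpr183 and S1pr1. Of these 9 genes, 8 had at least 1 probe set (a group of array probes for 1 transcript) under their symbol, 16 probe sets in all among the 45037 compared, and Ccr7 was not analysed here. Where a gene had several probe sets, the one with the highest mean over the 4 arrays stood for it. The arrays came from 2 miR-146a transgenic (TG) mice and 2 wild type (WT) mice, 1 array per mouse. All were male Balb/C mice aged 6 to 8 weeks. In both groups the cells were enriched from lymph nodes magnetically by removing other cells, and dead cells were then depleted. The promoter of the transgene and the cells that express it are not given in the sources used here, and mature miR-146a itself was not measured by these probe sets. The p-values measure the spread between 2 mice per group.

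These receptors couple to inhibitory G proteins, sense gradients of chemokines or lipids, and steer cells along them. In lymph nodes, CXCR5 draws B cells into follicles, GPR183 moves them along oxysterol gradients to the follicle's outer edge, and S1PR1 lets lymphocytes leave. CCR6 marks naive and memory B cells, whereas CXCR3, CXCR6 and CCR2 are better known from effector or memory T cells, natural killer T cells and monocytes, and CCR9 from gut-homing and thymic T cells. miR-146a pairs with target transcripts mainly through its seed, bases 2 to 8 from the 5′ end, which is in capitals in the mature sequence, shown because it is the agent the TG mice over-express (RefSeq, GRCm38.p6, chr11:43374435-43374456, minus strand).
mmu-miR-146a-5p: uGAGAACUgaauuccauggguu

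The deposited values are log2 signals, so a difference of 1 is a 2-fold change in signal. The array's non-specific controls averaged 2.95 and 2.85 on the TG arrays, against 2.83 and 2.84 on the WT arrays. The 2 TG arrays differed more from each other (SD of their difference over probe sets 0.319) than the 2 WT arrays did (0.119), and TG mouse 1 had a lower upper quartile (6.13, against 6.51 to 6.55 on the other 3 arrays). Differences were tested with limma across all probe sets. By limma with Benjamini-Hochberg adjustment over all probe sets, 0.0466% of all probe sets passed an adjusted p of 0.05 (21, 17 higher and 4 lower in TG), and none of the 16 receptor probe sets did. At an unadjusted p under 0.05 the receptors had 10 of 16 probe sets, where 13.7% of all probe sets lay there. Cxcr6 and Ccr2 each gave more than 1 of these 10, so they are not independent. The receptors were also chosen with earlier results of these data known. Their counts here and below therefore cannot be read as a test of the list. After quantile normalization, which gives the arrays 1 common distribution, 1.93% of all probe sets passed (402 higher and 468 lower), and 5 of the 16 receptor probe sets passed, 4 higher and 1 lower. After median centring 1.36% of all passed and 4 of the receptors' 16, and with dim probe sets left out 0.189% of those kept and 2 of the receptors' 15. Leaving out 1 array moved the count for all probe sets widely. Without TG mouse 1 9.19% of all passed (9 of 16 for the receptors) and without TG mouse 2 42.4% (12 of 16), in fits whose spread comes from the 2 close WT arrays alone and whose lone TG array is assumed to vary like them. Without WT mouse 1 or WT mouse 2 no probe set passed, in fits whose spread comes from the 2 TG arrays alone. A call in the fits without a TG mouse is therefore shared with a large part of the array. Of the 8 receptors, 4 were higher on both TG arrays than on both WT arrays, 3 were lower on both, and 1 overlapped. Over all 17097 genes 17.7% were higher without overlap and 31.4% lower without overlap, and over all probe sets the shares were the same. With 2 against 2 arrays an exact permutation test of a single probe set cannot give a two-sided p below 0.333.

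**Figure D1:**
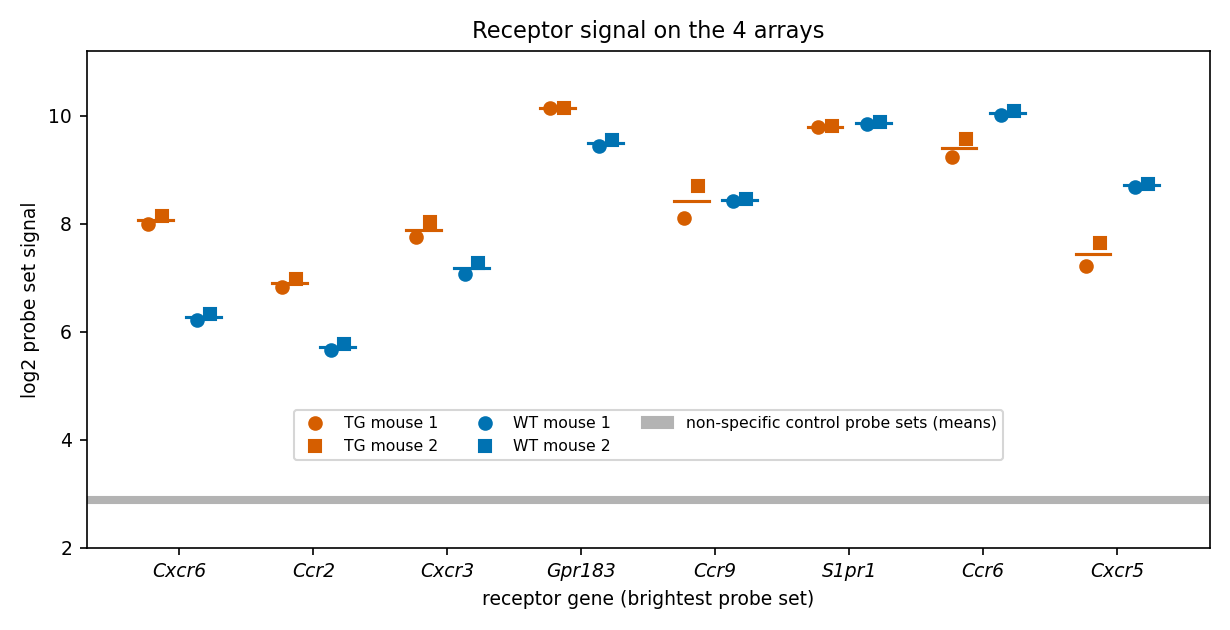
log2 signal (y axis) of the brightest probe set of each receptor gene (x axis) on the TG arrays (orange, left) and the WT arrays (blue, right), with circles for mouse 1, squares for mouse 2, a line at each group mean and a grey band at the non-specific control probe sets. Cxcr6, Ccr2, Cxcr3 and Gpr183 lie higher on both TG arrays, and Cxcr5 and Ccr6 lie lower, whereas heights of different genes are not comparable because each probe set has its own brightness.

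Cxcr5 and Ccr6, both receptors of B cells, were lower on both TG arrays than on both WT arrays, without passing the threshold as deposited. Cxcr5, the receptor for CXCL13, had a single probe set (1422003_PM_at), which read 7.22 and 7.64 on the TG arrays, against 8.68 and 8.73 on the WT arrays. Both TG arrays lay more than 1 log2 unit below both WT arrays, and TG mouse 1 was the lower of the 2. The group means were 7.43 ± 0.30 in TG and 8.71 ± 0.04 in WT (SD, n = 2 each), a 2.43-fold lower signal (log2 difference -1.28, SE 0.17, limma adjusted p = 0.121). The call depended on scaling, since Cxcr5 passed after quantile normalization (log2 difference -1.10, limma adjusted p = 0.0185) and after median centring (-1.22, adjusted p = 0.0257). It missed the threshold with dim probe sets left out (limma adjusted p = 0.076), with a replicate block (0.176) and with a robust eBayes (0.131). Without TG mouse 1 the difference was -1.07 (limma adjusted p = 0.00745) and without TG mouse 2 it was -1.49 (adjusted p = 0.00158), whereas without WT mouse 1 (-1.30) or WT mouse 2 (-1.25) the adjusted p was 1.

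Ccr6, the receptor for CCL20, also had a single probe set (1450357_PM_a_at), with 9.24 and 9.57 on the TG arrays, against 10.02 and 10.08 on the WT arrays. Again both TG arrays were the lower ones, with TG mouse 1 the lowest. Ccr6 averaged 9.40 ± 0.24 in TG and 10.05 ± 0.05 in WT (SD, n = 2 each), a 1.56-fold lower signal that missed the threshold (log2 difference -0.65, SE 0.15, limma adjusted p = 0.217), also after quantile normalization (-0.51, adjusted p = 0.0634) and median centring (-0.59, adjusted p = 0.0892). Its adjusted p was under 0.05 in the fits without TG mouse 1 (-0.48, limma adjusted p = 0.0303) and without TG mouse 2 (-0.81, adjusted p = 0.00258), where 9.19% and 42.4% of all probe sets passed, and it was 1 without WT mouse 1 (-0.68) or WT mouse 2 (-0.61).

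The promoter sequences from RefSeq, each of which runs from 250 bases before to 50 after each start, covered 7 promoters of 6 of the 8 receptors. Cxcr5 and S1pr1 had no promoter among them and were not searched. They were searched on both strands for the octamer ATGCAAAT, bound by the Oct factors that serve B cells with the co-activator encoded by Pou2af1, for a T-box core GGTGTGA, bound by factors such as EOMES and T-bet of effector T cells, and for the interferon gamma activated site TTCNNNGAA, bound by STAT factors. Over all 32851 promoters given there 1.74% held the octamer, 3.98% the T-box core and 8.3% the TTCNNNGAA pattern. The octamer was found in 1 of the 7 receptor promoters, the upstream start of Ccr6, 68 bases before the start and on the reverse strand. The same promoter held the TTCNNNGAA pattern 157 and 120 bases before the start, and the T-box core was in none of the 7. That Ccr6 promoter (GRCm38.p6, chr17:8235793-8236092, plus strand) is printed with the matches in capitals, beside the promoter of Cxcr6 (chr9:123806227-123806526, plus strand), the receptor with the largest difference among the 8, which held none of the 3. A match describes letters and shows no bound factor.
Ccr6 upstream start: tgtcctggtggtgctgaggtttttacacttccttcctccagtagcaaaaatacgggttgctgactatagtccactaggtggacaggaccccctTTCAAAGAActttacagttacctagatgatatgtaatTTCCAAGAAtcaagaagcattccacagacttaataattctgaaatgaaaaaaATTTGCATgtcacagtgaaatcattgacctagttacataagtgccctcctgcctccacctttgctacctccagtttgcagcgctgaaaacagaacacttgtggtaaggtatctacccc
Cxcr6: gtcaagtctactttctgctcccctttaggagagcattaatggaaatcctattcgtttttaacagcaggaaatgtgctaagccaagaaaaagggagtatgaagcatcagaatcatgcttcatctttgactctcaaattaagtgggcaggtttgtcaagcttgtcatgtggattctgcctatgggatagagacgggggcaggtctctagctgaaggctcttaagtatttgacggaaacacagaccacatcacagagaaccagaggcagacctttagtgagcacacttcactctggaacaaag

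Gpr183, which with CXCR5 sets where a B cell sits in the follicle, was higher on both TG arrays on its brighter probe set only. That probe set (1437356_PM_at) read 10.14 and 10.14 on the TG arrays, against 9.44 and 9.54 on the WT arrays. The TG mice were alike to the second decimal and both lay above the WT mice. The difference was 1.57-fold (log2 0.65, SE 0.10, limma adjusted p = 0.145), and 0.78 after quantile normalization (limma adjusted p = 0.0542). It was 0.65 both without TG mouse 1 (limma adjusted p = 0.0192) and without TG mouse 2 (adjusted p = 0.00473), and its adjusted p was 1 without WT mouse 1 (0.60) or WT mouse 2 (0.70). The second probe set (1457691_PM_at), at 7.38 and 7.80 in TG and 7.53 and 7.70 in WT, overlapped between the groups and differed by -0.02 (95% interval -0.48 to 0.44, limma adjusted p = 0.969). The interval of the brighter one ran from 0.39 to 0.92, so the intervals of the 2 probe sets overlapped slightly, and the difference between them was not tested. In RefSeq Gpr183 overlaps Ubac2, a gene of the ubiquitin system, whose 2 probe sets differed by -0.41 and -0.04.

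S1pr1, the exit receptor for sphingosine 1-phosphate, was nearly level. Its probe set (1423571_PM_at) read 9.78 and 9.81 on the TG arrays, against 9.84 and 9.88 on the WT arrays. The groups did not overlap, but the gap between their means was small (log2 difference -0.06, 95% interval -0.32 to 0.19, limma adjusted p = 0.791) and turned to 0.08 after quantile normalization.

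Cxcr6, Ccr2 and Cxcr3, known from T cells, natural killer T cells and monocytes, were higher on both TG arrays than on both WT arrays, again without passing as deposited. Cxcr6, the receptor for CXCL16, differed most of the 8, and its 2 probe sets shared the direction. On 1422812_PM_at it read 8.00 and 8.14 in TG, against 6.21 and 6.33 in WT. On 1425832_PM_a_at it read 7.77 and 7.49 in TG, against 5.19 and 5.44 in WT. On both probe sets the mice of a group lay close together, with well over 1 log2 unit between the groups. The means on the brighter probe set were 8.07 ± 0.09 in TG and 6.27 ± 0.09 in WT (SD, n = 2 each), a 3.49-fold difference (log2 1.80, SE 0.11, limma adjusted p = 0.056), and the dimmer probe set gave 4.98-fold (log2 2.32, SE 0.15, limma adjusted p = 0.0634). By unadjusted p they ranked 22 and 25 among the 45037 probe sets, just past the 21 that were called. Both passed after quantile normalization (limma adjusted p = 0.00873 for 1422812_PM_at and 0.0222 for 1425832_PM_a_at), after median centring (0.00637 and 0.011) and once probe sets below 4.10 in mean signal were left out (0.0269 and 0.0239), but neither passed with a replicate block (0.125 and 0.139) or a robust eBayes (0.0652 and 0.0538). The brighter one also passed without TG mouse 1 (log2 difference 1.87, limma adjusted p = 0.00515) and without TG mouse 2 (1.74, adjusted p = 0.00158), but not without WT mouse 1 (1.74, adjusted p = 1) or WT mouse 2 (1.86, adjusted p = 0.821).

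Ccr2, the receptor for CCL2 by which monocytes leave the bone marrow, had 4 probe sets. The brightest (1421186_PM_at) read 6.83 and 6.97 in TG, against 5.66 and 5.77 in WT, a 2.28-fold difference (log2 1.19, SE 0.11, limma adjusted p = 0.0935). Probe sets 1421187_PM_at and 1421188_PM_at, designed on the same accession, were higher on both TG arrays too, by 0.93 (SE 0.14) and 0.70 (SE 0.15). The fourth (1460067_PM_at), with 5.24 and 5.62 in TG, against 5.31 and 5.16 in WT, overlapped and differed by 0.20. So 3 of 4 Ccr2 probe sets were higher without overlap, and their mean difference over all 4 was 0.75. The brightest passed after quantile normalization (log2 difference 1.38, limma adjusted p = 0.0206), after median centring (1.24, adjusted p = 0.0163), without TG mouse 1 (1.25, adjusted p = 0.00705) and without TG mouse 2 (1.12, adjusted p = 0.00186). It missed the threshold with dim probe sets left out (limma adjusted p = 0.0605), with a replicate block (0.176), with a robust eBayes (0.115) and without WT mouse 1 (1.14) or WT mouse 2 (1.24), where the adjusted p was 1.

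Cxcr3, the receptor for CXCL9, CXCL10 and CXCL11 on effector T cells, had 1 probe set (1449925_PM_at), which read 7.75 and 8.03 in TG, against 7.07 and 7.27 in WT. Both TG arrays were higher, by an amount larger than the gap within either group. The difference was 1.64-fold (log2 0.72, SE 0.15, limma adjusted p = 0.194), and 0.91 after quantile normalization, where it passed (limma adjusted p = 0.0311), but not after median centring (0.77, adjusted p = 0.0578) or with dim probe sets left out (0.72, adjusted p = 0.148). It passed without TG mouse 1 (0.86, limma adjusted p = 0.0186) and without TG mouse 2 (0.58, adjusted p = 0.0127), and its adjusted p was 1 without WT mouse 1 (0.62) or WT mouse 2 (0.82).

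Ccr9, the receptor for CCL25, gave no common direction over its 4 probe sets. The brightest (1427419_PM_x_at, a suffix Affymetrix gives to probe sets that may bind other transcripts) read 8.11 and 8.70 in TG, against 8.42 and 8.45 in WT. The 2 TG mice lay on opposite sides of the WT mice, so the difference of -0.03 (95% interval -0.59 to 0.53, limma adjusted p = 0.969) became 0.26 without TG mouse 1 (adjusted p = 0.0959) and -0.32 without TG mouse 2 (adjusted p = 0.0225). Probe set 1421920_PM_a_at was lower on both TG arrays (5.99 and 6.30, against 6.40 and 6.50 in WT), whereas 1421919_PM_a_at was higher on both (4.93 and 4.80, against 4.58 and 4.57 in WT). Their differences were -0.30 (limma adjusted p = 0.44) and 0.29 (adjusted p = 0.345). The fourth (1442758_PM_at), at 3.30 and 3.12 in TG and 3.15 and 3.19 in WT, lay close to the non-specific controls.

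**Figure D2:**
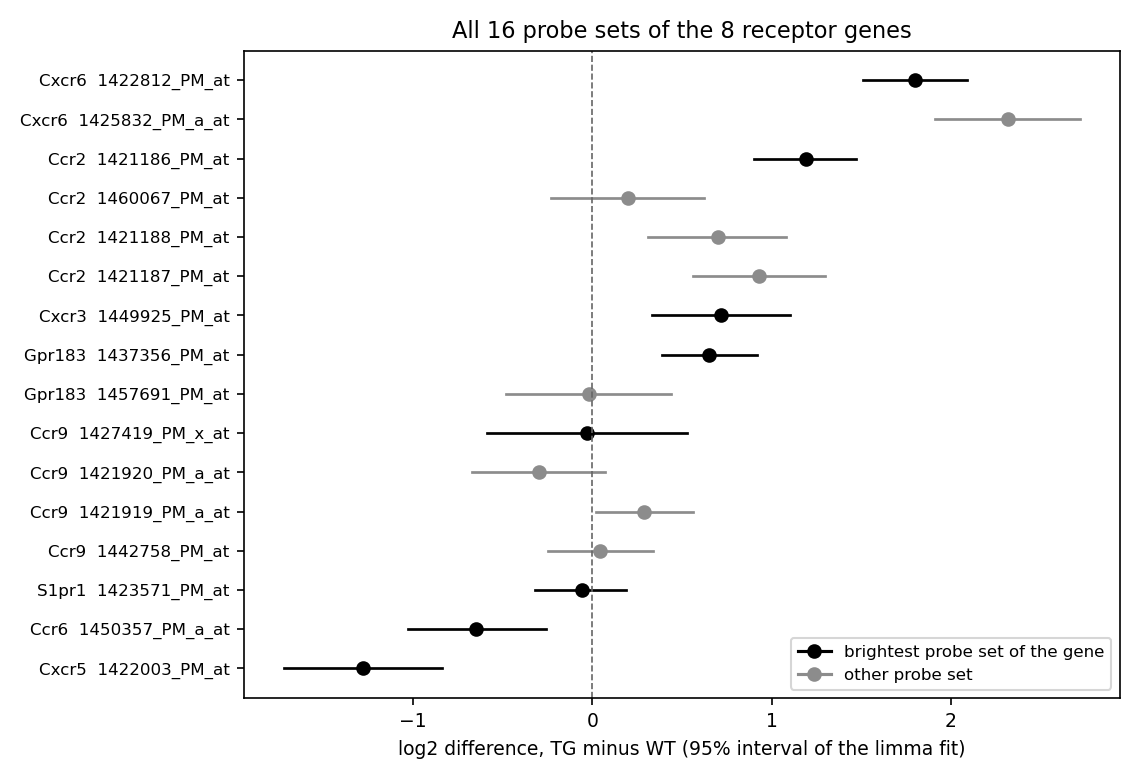
log2 difference, TG minus WT (x axis), with its 95% interval from the limma fit, for the 16 probe sets of the 8 receptor genes (y axis), the brightest of each gene in black and the others in grey. The 2 probe sets of Cxcr6 (1.80 and 2.32) and 3 of 4 of Ccr2 lie to the right of 0, whereas those of Gpr183 lie at 0.65 and -0.02 and those of Ccr9 on both sides of 0.

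Cxcr6, Ccr9 and Ccr2 belong to a cluster of receptor genes on mouse chromosome 9, but their signals did not share 1 direction or size. In RefSeq Cxcr6 lies between Ccr9 and Xcr1 and overlaps Fyco1, a gene of vesicle transport. The probe set of Fyco1, given because of that overlap and chosen after its values were seen, read 6.57 and 7.03 in TG, against 7.01 and 6.97 in WT (log2 difference -0.19, limma adjusted p = 0.672). Xcr1, a receptor of cross-presenting dendritic cells, differed by 0.55 (limma adjusted p = 0.423), and Ccr3, an eosinophil receptor beside Ccr2 that lay near the non-specific controls, by 0.10. Cxcr6 at 1.80 and Ccr2 at 1.19 thus stood beside neighbours whose differences were smaller, and that contrast between genes was not tested.

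Markers of the labelled cell type and of other cells also differed between the groups. Counts of markers without overlap, here and in the paragraphs below, stand beside 17.7% of all genes higher and 31.4% lower. B cell markers were present on every array (Cd22, an inhibitory co-receptor, at 10.32 and 10.37 in TG, against 11.27 and 11.30 in WT), but all 11 measured of 12 were lower on both TG arrays. Their median difference was -0.94, against -0.053 over all genes, and their summed linear signal was 8879 and 9274 in TG, against 15586 and 16529 in WT. Cxcr5 (-1.28) lay below that median and Ccr6 (-0.65) above it. None of the 11 passed as deposited, and 6 were lower past the threshold after quantile normalization. Fcer2a, the low-affinity IgE receptor, differed by -1.02, Blnk, an adaptor of the B cell receptor, by -0.85 and Ebf1 by -1.28. In bulk RNA fewer B cells and less of a transcript per B cell cannot be told apart, and the part of the B cell share in the Cxcr5 and Ccr6 differences was not tested.

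T cell markers were present in these B cell preparations, and most were higher on both TG arrays. Cd3e, a chain of the T cell receptor complex, read 10.48 and 10.17 in TG, against 10.14 and 10.14 in WT, and Cd8a, the CD8 co-receptor, 10.02 and 10.09 in TG, against 8.80 and 9.02 in WT. Of 12 measured of 14 T cell markers 11 were higher without overlap and 1, Cd4 (-0.79), was lower. Cd8b1 differed by 0.74 and Ubash3a, a regulator of T cell receptor signalling, by 0.55. Their median difference was 0.31, and their summed linear signal was 14694 and 16707 in TG, against 11951 and 12173 in WT. None passed as deposited and 4 were higher past the threshold after quantile normalization. No measured T cell marker lay near the non-specific controls (within about 1 log2 unit, a mean under 3.95), and the part of T cell RNA in the Cxcr6, Cxcr3 and Gpr183 differences was not tested.

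Among 13 markers of effector or memory T cells and natural killer cells, 6 were higher and 4 lower without overlap, beside 17.7% and 31.4% of all genes (median 0.28; summed linear signal 4370 and 5578 in TG, against 4596 and 4647 in WT). Eomes, a transcription factor of memory CD8 T cells, differed by 1.17 (limma adjusted p = 0.0809) and Il2rb, a chain of interleukin receptors, by 0.60. Cd44, an adhesion receptor of memory cells, differed by 0.58 and Gzma, a granzyme, by -0.96. Tbx21, which encodes T-bet, differed by -1.13 and Gzmk, another granzyme, by -0.85, each lower on both TG arrays. The part of such cells in the Cxcr6 and Cxcr3 differences was not tested. After quantile normalization 3 passed as higher and 1 as lower.

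Beside Ccr2 stand the markers of monocytes, macrophages and dendritic cells. Of 10 measured of 14, 6 were higher and 2 lower without overlap, with a median of 0.10 and a summed linear signal of 1692 and 1987 in TG, against 1377 and 1360 in WT. Cd14, an endotoxin co-receptor of monocytes, differed by 0.97 (limma adjusted p = 0.144) and Lyz2, lysozyme, by 0.53 (adjusted p = 0.241). Lyz2 was by far the brightest of the 10 (10.42 and 10.71 in TG, against 10.05 and 10.01 in WT). The summed signal therefore mostly follows this single gene. Flt3, a receptor of dendritic cell precursors, differed by -0.36 (limma adjusted p = 0.335), Csf1r, the receptor for their growth factor, differed by 0.14 with overlap and Itgam lay near the non-specific controls. The 11 measured of 14 neutrophil markers were all higher without overlap, with a median of 1.81 and a summed linear signal of 1662 and 2290 in TG, against 386 and 388 in WT. Chil3, a chitinase-like protein, and Ngp, a granule protein, were the 2 of them that passed as deposited (log2 differences 3.83 and 2.77, limma adjusted p = 0.0219 for each), and S100a8 and S100a9, the calprotectin subunits, differed by 2.58 and 2.53. At the other end Mpo, near the non-specific controls, differed by 0.11 and Elane by 0.16. The part of these cells in the Ccr2 difference was not tested.

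Markers of type 17 and innate-like lymphocytes, which can carry CCR6 and CXCR6, had 5 of 6 measured (of 8) higher and 1 lower without overlap, with a median of 0.48 and a summed linear signal of 1526 and 1835 in TG, against 1507 and 1524 in WT. Icos, a T cell co-stimulator, differed by 1.39 and Zbtb16, the factor of natural killer T cells, by 0.49. Sox13, a factor of gamma delta T cells, differed by 0.46, and the lower one was Blk (-1.31), a kinase that B cells express. Icos read 9.73 and 10.03 in TG, against 8.51 and 8.47 in WT. Blk read 8.36 and 8.60 in TG, against 9.77 and 9.82 in WT. The summed signal therefore mostly follows these 2 genes, which differed in opposite directions. The 5 measured of 7 plasma cell markers had a median of -0.18 (2399 and 2598 summed in TG, against 3086 and 3051 in WT), with 1 higher and 2 lower. Among them Jchain, the joining chain of secreted antibodies, differed by -0.65, Irf4 by -0.35, Prdm1 by 0.43 and Tnfrsf17, near the non-specific controls, by -0.18. The 8 measured of 9 stromal and endothelial markers had a median of -0.11 (268 and 272 summed in TG, against 278 and 297 in WT), with 2 higher and 4 lower. Stab2, a scavenger receptor of sinus endothelium, read 5.73 and 5.85 in TG, against 4.39 and 4.35 in WT (log2 difference 1.42, limma adjusted p = 0.0747) and passed after quantile normalization (1.55, adjusted p = 0.0139). Pecam1, an endothelial adhesion molecule, differed by -0.36 and Pdgfrb, a receptor of stromal cells, by -0.21. In the last list Pdpn, Vwf, Lyve1 and Col1a1 lay near the non-specific controls.

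**Figure D3:**
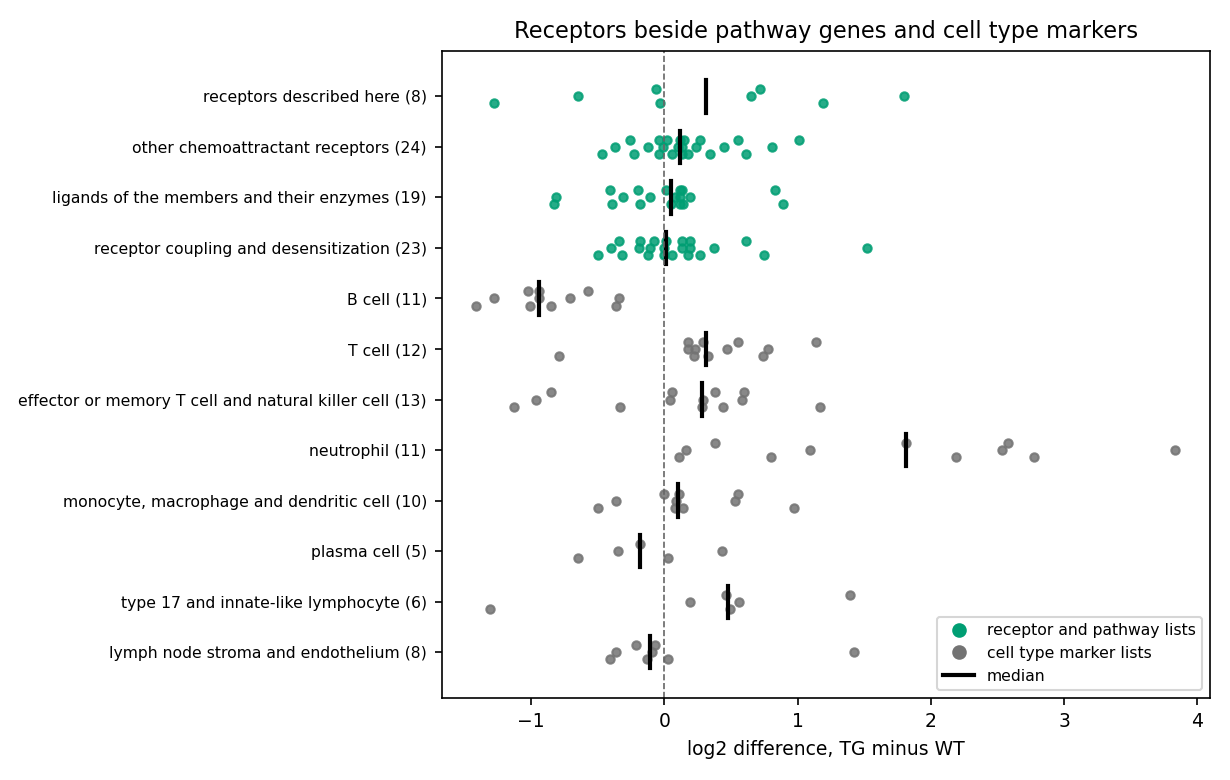
log2 difference, TG minus WT (x axis), of each measured gene in the receptor and pathway lists (green) and the cell type marker lists (grey), with the number of genes in brackets and a bar at each list's median. The 8 receptors spread from -1.28 to 1.80 around a median of 0.31, B cell markers lie below 0 (median -0.94) and neutrophil markers above it (median 1.81).

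Of the other chemoattractant receptors, 24 of 29 were measured. Without overlap 13 were higher and 3 lower, beside 17.7% and 31.4% of all genes. None passed as deposited, and the median was 0.12. Fpr2, a formyl peptide receptor of phagocytes, read 6.54 and 6.57 in TG, against 5.54 and 5.55 in WT (log2 difference 1.01, limma adjusted p = 0.0935). Ltb4r1, the leukotriene B4 receptor, differed by 0.81, Ccr10, known from plasma cells and skin-homing T cells, by 0.61, and Ackr3, a scavenging receptor near the non-specific controls, by -0.37. After quantile normalization Fpr2 (limma adjusted p = 0.0313) and Ltb4r1 (adjusted p = 0.036) passed, and no other of the 24 did.

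Ligands of the receptors and the enzymes that make or remove their lipid ligands showed no common direction. Of 19 measured of 20, 7 were higher and 7 lower without overlap, beside 17.7% and 31.4% of all genes. The median was 0.05, and none passed as deposited. Cxcl13, the ligand of CXCR5, read 5.53 and 5.78 in TG, against 6.04 and 6.09 in WT (log2 difference -0.41, limma adjusted p = 0.302). Spns2, which exports sphingosine 1-phosphate, differed by -0.83, and Ccl8 and Ccl12, chemokines of macrophages, by 0.83 and 0.89. The TG mice lay apart, at 5.27 and 5.93 for Spns2, 7.02 and 7.69 for Ccl8 and 4.24 and 5.06 for Ccl12. In WT Ccl12 read 3.77 and 3.76, within about 1 log2 unit of the non-specific controls. For the oxysterol ligand of GPR183, Ch25h and Cyp7b1, the enzymes that make it, both lay near the non-specific controls. After quantile normalization Ccl8 (log2 difference 1.04, limma adjusted p = 0.0376) was the 1 gene of this list that passed.

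Downstream of the receptors, genes of G protein coupling, desensitization and S1PR1 control were spread around 0. Of 23 measured of 24, 10 were higher and 8 lower without overlap, beside 17.7% and 31.4% of all genes. The median was 0.01. Rgs1, which shuts off the inhibitory G proteins that these receptors use, stood apart with 11.02 and 11.25 in TG, against 9.59 and 9.64 in WT. This was a 2.87-fold difference (log2 1.52, limma adjusted p = 0.0806), and it passed after quantile normalization (log2 1.65, adjusted p = 0.00861). Cd69, which pulls S1PR1 off the surface, read 10.68 and 11.16 in TG, against 10.10 and 10.25 in WT, and also passed after quantile normalization (log2 0.88, limma adjusted p = 0.0447). Klf2, the factor that drives S1pr1 transcription, differed by 0.37 (limma adjusted p = 0.263), while S1pr1 itself differed by -0.06. Pik3cg, the catalytic subunit of the kinase downstream of these receptors, differed by -0.50.

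Each receptor that differed by at least 0.5 log2 units without overlap was set against 12024 genes above the 40th percentile of signal, by the distance between their log2 values over the 4 arrays after the WT mean was subtracted. With 4 arrays such likeness is a description of 2 TG values. Nearest to Cxcr5 were Ebf1, a B cell transcription factor (distance 0.03), and Iglv1, an immunoglobulin light chain segment (0.05). Nearest to Ccr6 were Dcaf11 (0.02) and Cux1 (0.03). Nearest to Cxcr3 were Cd8b1, a chain of the CD8 co-receptor (0.08), and Sqor (0.09). Nearest to Cxcr6 were Rgcc (0.18) and Ccl9 (0.21), to Ccr2 Ppic (0.05) and Aqp3 (0.09), and to Gpr183 Osbpl3 (0.03) and Ddc (0.07).

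**Figure D4:**
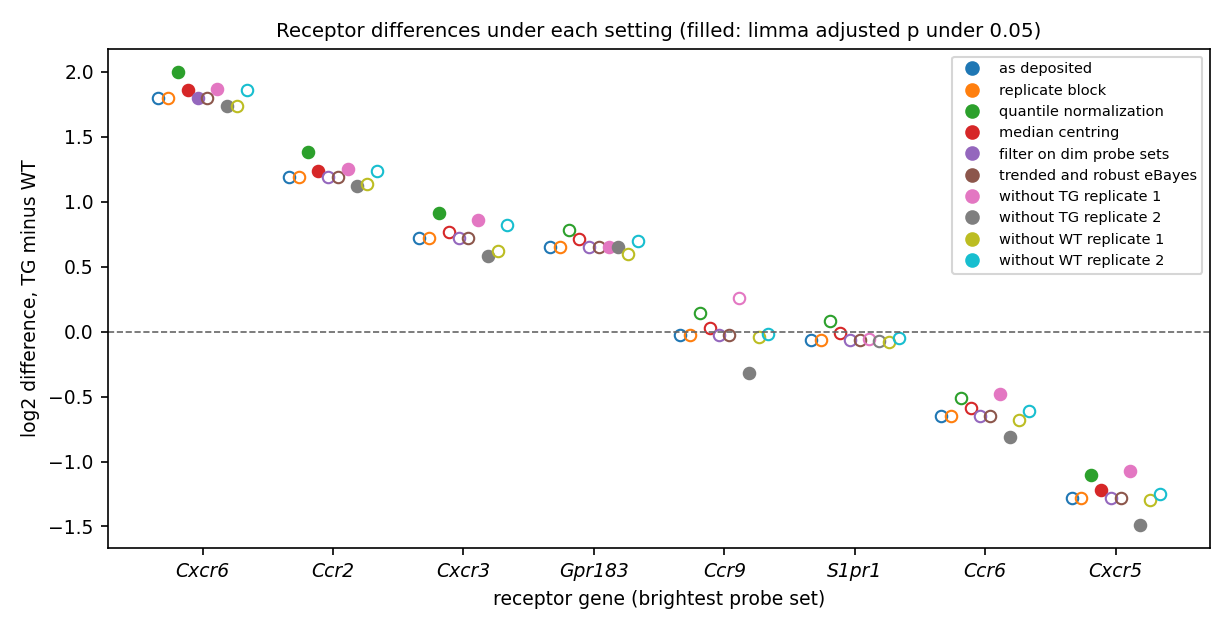
log2 difference, TG minus WT (y axis), of the brightest probe set of each receptor (x axis) as deposited and under 9 other settings (colours), filled where the limma adjusted p was under 0.05. The points of Cxcr6, Ccr2, Cxcr3 and Gpr183 stay above 0 and those of Ccr6 and Cxcr5 below 0 under all 10, whereas Ccr9 and S1pr1 cross 0.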

How the data were processed

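Total RNA of lymph node B cells was measured on Affymetrix arrays, labelled with a 3' expression kit per the labels' protocols. Signals of 45141 probe sets were deposited on a log2 scale; the authors' background correction, normalization and probe summary are not given in the sources used here, and that scale was inferred from the range of the values (2.02 to 13.03 over the probe sets compared). The platform annotation gave 1 gene for 28898 probe sets, several for 551 and none for 15588, and 28689 were matched by Entrez ID to RefSeq (GRCm38.p6). After 104 control probe sets were left out, 45037 entered a limma fit (version 3.58.1, R 4.3.3, lmFit, eBayes, two-sided, Benjamini-Hochberg over all of them, threshold 0.05, 2 residual and 2.69 prior degrees of freedom). The code of the fit was run on simulated data with independent noise of equal spread in both groups. Such data cannot show how the fit behaves with the unequal spread and scaling of these arrays. Figures used matplotlib 3.10.9. The number of arrays limits the precision. Detection calls were not used.

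The receptors, gene lists and named genes were chosen with earlier results of these data known. All probe sets of the 8 receptors are given. Of every other list, up to 4 genes of smallest p are named. Cd3e, Csf1r, Itgam, Tbx21, Gzmk, Elane, Ccr3, Ch25h, Cyp7b1 and the genes that overlap a receptor or lie near the controls were added after their values were seen. Titles give mice 1 and 2 for both groups without pairing them, and the deviations of same-numbered mice correlated at 0.014, so no block was used. Alternatives were quantile normalization, median centring, a replicate block, leaving out probe sets under the 40th percentile (4.1), robust eBayes with a trend, a threshold of 0.1, the mean of a gene's probe sets, and leaving out each array.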

Additional observations from a re-analysis of the deposited data

How the results depend on the processing

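The number of calls depended on scaling and on single arrays. Over all probe sets 21 passed as deposited (81% higher), 870 after quantile normalization (46.2% higher), 614 after median centring (189 higher and 425 lower), 51 with the filter on dim probe sets and 139 at a threshold of 0.1. The receptors' probe sets gave 0 as deposited and 5, 4, 2 and 3 under these settings, and the other lists gave 2 as deposited and 31, 19, 6 and 12. Leaving out each array gave 0 to 19110 calls over all probe sets, 0 to 12 among the receptors' probe sets and 0 to 77 in the other lists. The highest counts came without TG mouse 2 (4140 over all without TG mouse 1), where the spread rests on the close WT pair, and the 0 counts without WT mouse 1 or WT mouse 2, where limma called none of 45037 although 1631 and 1576 had an unadjusted p under 0.05. The replicate block, for which the design gives no pairing, gave 15 calls over all probe sets, 0 among the receptors and 2 in the other lists, and the trended and robust eBayes gave 26, 0 and 2. Of 76 recomputed receptor differences 5 turned sign, and all 5 were small as deposited: Ccr9 became 0.14 after quantile normalization, 0.025 after median centring, 0.26 without TG mouse 1 (-0.32 without TG mouse 2, adjusted p = 0.0225) and 0.0014 as the mean of its probe sets, and S1pr1 became 0.08 after quantile normalization. As the mean of all probe sets Cxcr6 differed by 2.06, Ccr2 by 0.75 and Gpr183 by 0.31. Low signals have no detection call, and 4 arrays limit the precision. The causes of these shifts were not tested.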
